A study of Mus musculus with 86 samples.

Results

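Round spermatids and spermatocytes are 2 successive stages of male germ cell development, and the RNA of 3 round spermatid libraries was set here against that of 3 spermatocyte libraries. All 6 libraries came from 4-month-old mice of a C57BL/6 X 129/SvJ hybrid strain, in each case heterozygous for a mutation of *Btbd18*. They are the 6 of the 86 samples of the series whose labels name purified cells, RNA-seq and a heterozygous genotype, and the count tables of both cell types were joined by feature name over all 24276 features. All 6 carry the heterozygous genotype, so no group here is wild type, and the labels do not describe the mutant allele.

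A spermatocyte replicates its DNA once, pairs and recombines its homologous chromosomes during a long prophase, and then divides in quick succession into haploid round spermatids. Round spermatids build the acrosome, the secretory vesicle that later opens at the egg, and the flagellum, and they make mRNAs for the proteins that replace histones and compact the sperm head, many of which are stored for later translation. During meiotic prophase the unpaired X and Y chromosomes are silenced, and in spermatids a subset of their genes is transcribed again. Spermatocytes in mid-prophase also transcribe long precursors of piRNAs, small RNAs that guide Piwi proteins, from intergenic clusters and from genes. *Btbd18* encodes a nuclear protein known for the transcription of such precursors.

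The series compared *Btbd18* knockout with heterozygous males by sequencing of RNA and small RNA and by assays of chromatin. Used beside the 6 libraries were the homozygous knockout libraries of the same 2 purified cell types (3 each), and whole testes of heterozygous mice at postnatal day 28 (P28, 2 libraries) and day 18 (P18, 3 libraries). The labels give neither how the cells were purified, nor their purity, nor whether replicates are separate animals. The p-values therefore refer to the variation among these libraries, which may be technical. Levels are given as CPM, counts scaled to a common library total after a correction for library composition (TMM). Each is relative to the rest of its library, because no spike-in is recorded.

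Depth was low. The round spermatid libraries held 543401, 448132 and 478637 counts and the spermatocyte libraries 514384, 321800 and 475792. Between 11301 and 12906 features had at least 1 count in a library. The round spermatid libraries resembled each other, with correlations across features of 0.909 to 0.922 on the log2 scale. The spermatocyte libraries were more spread, with 0.895 between replicates 1 and 2, 0.891 between 2 and 3, and 0.779 between 1 and 3. The first principal component, with 77.3% of the variance, separated the cell types, and the second, with 11.6%, separated spermatocyte replicates 1 and 3. Spermatocyte replicate 1 lay nearest to the round spermatids, with correlations of 0.487 to 0.590 against 0.321 to 0.400 for replicate 3.

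The purified-cell libraries were made with a strand-preserving kit, but the strand setting of the counting is not given in the sources used here. A gene and a gene on the opposite strand at the same place cannot be told apart. Features whose span overlaps an opposite-strand gene in the RefSeq tables took 40.3%, 42.1% and 42.4% of counts in round spermatids and 50.6%, 51.1% and 46.4% in spermatocytes, against 25.0% in either P28 testis and 23.6% to 23.9% in P18 testes. Among the 50 features of known strand with most counts, 40 in round spermatids and 42 in spermatocytes had such a partner, against 12 in P28 testes. Among all tested features of known strand the share was 41.3%. Across the 2825 tested features with no such partner, levels tracked those of P28 testes with Spearman correlations of 0.43 in round spermatids and 0.25 in spermatocytes, and across the 1990 features with one, 0.27 and -0.00. These correlations across genes share libraries and gene lengths and are a description. Of the annotated opposite-strand genes of a feature, the one with the longest overlap is named below. A feature whose strand the tables do not hold is marked as such.

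**Figure D1:**
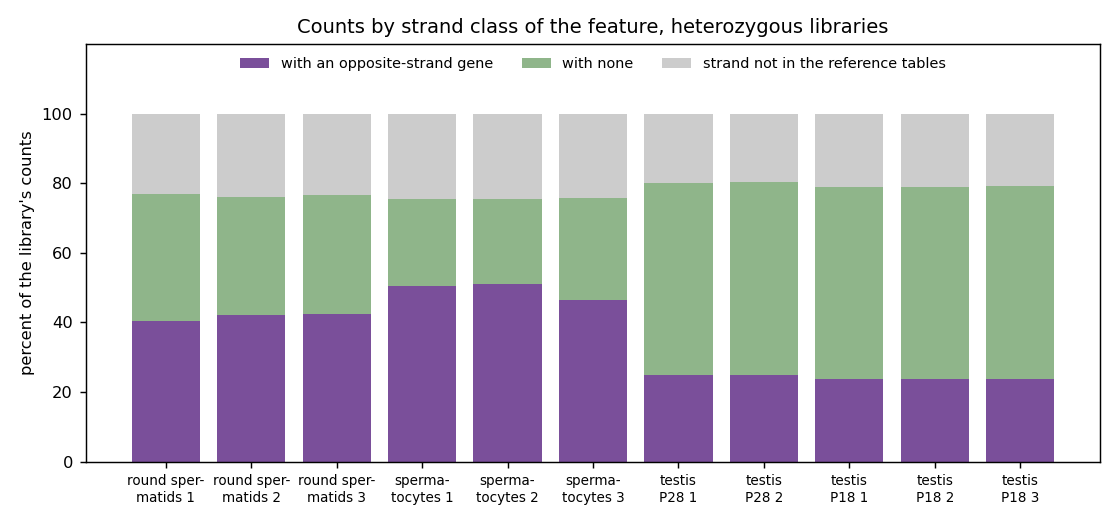
Share of each library's counts (percent, y axis) that fell on features overlapping an opposite-strand gene, on features with none and on features whose strand is not in the reference tables, in 3 round spermatid, 3 spermatocyte, 2 P28 testis and 3 P18 testis libraries. The overlapped share was 40.3% to 42.4% in round spermatids and 46.4% to 51.1% in spermatocytes, against 25.0% in P28 testes.

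The labels were checked against marker lists. Round spermatid markers summed to 3872, 3299.7 and 2516 CPM in round spermatids, against 1084, 751 and 825 CPM in spermatocytes. Elongating spermatid markers summed to 7405, 5911 and 4646 CPM in round spermatids, against 2131, 1716 and 1513 CPM in spermatocytes. The cell types overlapped in neither list. Spermatocyte markers did not separate the cell types, with sums of 6687, 5979 and 6073 CPM in round spermatids, against 4195, 6012 and 8538 CPM in spermatocytes. Of its 18 tested members 2 were higher in round spermatids, 3 lower and 13 did not pass, beside 25.9% higher and 23.8% lower over all features. The higher ones were *Pgk2* (log2 fold change 2.85) and *Adam3* (strand not in the tables, 1.10). The lower ones were *Piwil1*, *Sycp3* (with *Chpt1* on the opposite strand) and *Mybl1* (strand not in the tables), of which *Sycp3* did not pass without round spermatid replicate 3 (adjusted p = 0.0696). Spermatid markers were thus present at a lower level in the spermatocyte libraries, with the highest sums in replicate 1, and their part in the results was not tested. The check was between the 2 cell types, and enrichment over whole testes, made with another kit, was not tested. Several list members had fewer CPM in the purified cells than in testes. Mean CPM in round spermatids and in P28 testes was 429 and 1629 for *Akap4*, 341 and 1149 for *Actl7b* and 125 and 130 for *Catsper4*. For *Piwil1* it was 631 in spermatocytes and 1063 in P18 testes. In bulk RNA, fewer cells of a type and less RNA per cell cannot be told apart.

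Most markers of somatic cells had few or no counts, and a few single genes made up the sums. Sertoli markers summed to 202, 187 and 183 CPM in round spermatids, against 174, 214 and 132 CPM in spermatocytes, with 9 of 23 members at 0 counts in all 6 libraries. Blood and macrophage markers stayed between 20.2 and 41.9 CPM in every library, and 0 of 18 members passed the low-count filter. Leydig markers summed to 103, 178 and 139 CPM in round spermatids, against 706, 937 and 752 CPM in spermatocytes. In all 6 libraries 10 of 15 members, *Cyp11a1* and *Insl3* among them, had 0 counts. In spermatocytes the sum rested on *Star*, a cholesterol carrier of steroidogenic cells whose strand is not in the tables. *Star* had 11.6, 0 and 5.71 CPM in round spermatids, against 642, 904 and 743 CPM in spermatocytes (log2 fold change -6.88 ± 0.56, adjusted p = 1.61e-05). In round spermatids the sum rested on *Fdx1*, with 84.5, 178 and 114 CPM. Peritubular and vascular markers summed to 227, 229 and 185 CPM in round spermatids, against 652, 783 and 952 CPM in spermatocytes. The main member was *Tagln*, a smooth muscle actin-binding protein (strand not in the tables), with 14.9, 39.6 and 34.3 CPM in round spermatids, against 439, 553 and 592 CPM in spermatocytes (log2 fold change -4.17 ± 0.39, adjusted p = 2.79e-05). Spermatogonial markers summed to 1249.9, 1577 and 1128 CPM in round spermatids, against 949, 602 and 567 CPM in spermatocytes. Of this sum *Gfra1*, a receptor subunit of stem spermatogonia with *Gm10007* on the opposite strand, gave 716, 1058 and 556 CPM in round spermatids, against 441, 92.9 and 22.8 CPM in spermatocytes. *Dmrtb1*, with *1700047F07Rik* on the opposite strand, gave 487, 482 and 518 CPM against 422, 392 and 346 CPM and did not pass. *Gfra1* passed as higher (log2 fold change 2.05 ± 0.73, adjusted p = 0.0367) but not without round spermatid replicate 1, 2 or 3 or spermatocyte replicate 2 (adjusted p up to 0.147). The called members of these lists went both ways. Lower in round spermatids were *Star*, *Tagln*, *Mylk* (with *E130310I04Rik* on the opposite strand, log2 fold change -1.87) and the cyclin gene *Ccnd1* of spermatogonia (strand not in the tables, -3.79). Higher were *Gfra1*, the Leydig list's *Fdx1* (2.33) and the vascular receptor gene *Tek* (2.64). Their part in the results was not tested.

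Of the 6150 features that passed the low-count filter, 1593 (25.9%) were higher and 1464 (23.8%) lower in round spermatids than in spermatocytes at an adjusted p below 0.05, together 49.7%. All adjusted p-values are from edgeR's quasi-likelihood test with Benjamini-Hochberg adjustment over all tested features. Changes of over 4-fold made up 800 of the higher and 793 of the lower ones, and the median log2 fold change over all features was 0.11. Features with no opposite-strand gene were more often higher than lower (809 against 496 of 2825), and features with one the reverse (442 against 610 of 1990). Both directions turned when each class was scaled and fitted alone, with 578 higher and 677 lower of 2834 with no opposite-strand gene, and 569 higher and 525 lower of 1993 with one. The median log2 fold change was then -0.0068 and 0.13, against 0.32 and -0.16 in the fit of all features. With libraries scaled by total counts the median moved to 0.48 and the split to 2073 higher and 1108 lower (65.2% of calls higher, against 52.1%), and changes are given relative to the TMM scaling. The calls also depended on the libraries used. Leaving out spermatocyte replicate 2 gave 1035 higher and 1200 lower, and leaving out spermatocyte replicate 1 gave 1937 and 1696. A fit with the 6 knockout libraries, filtered, scaled and given its spread over all 12 (7900 features tested), gave 361 and 777. No feature called in either direction was called in the other under any of these. A feature near 0 in one cell type could pass the low-count filter only through the other, so counts over tested members of a list are a description of those members. The cell types did not overlap at 32.5% of tested features in the higher and 28% in the lower direction. Most genes named below were picked by small p, so a lack of overlap is a description of them only. Of the 1593 higher features, 933 had their highest spermatocyte level in replicate 1. The cell types were counted in separate tables, so a difference in library preparation and the difference between cell types cannot be told apart.

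The 15 features with the smallest p on the round spermatid side had log2 fold changes of 3.38 to 6.16, and all 15 were over 6-fold higher in the lowest round spermatid library than in the highest spermatocyte library. *Spata21*, a spermatogenesis-associated gene, had 655, 473 and 491 CPM in round spermatids, against 46.6, 16.2 and 25.1 CPM in spermatocytes (log2 fold change 4.15 ± 0.40, adjusted p = 3.12e-05). *Tbata* had 159, 172 and 124 CPM in round spermatids, against 0, 4.04 and 2.28 CPM in spermatocytes (log2 fold change 6.16 ± 0.62, adjusted p = 3.60e-05). *Kif2b*, a microtubule-depolymerizing kinesin, had 466, 414 and 360.0 CPM in round spermatids, against 44.1, 40.4 and 18.2 CPM in spermatocytes (log2 fold change 3.61 ± 0.38, adjusted p = 4.87e-05). In these 3 genes no spermatocyte library came within 8-fold of a round spermatid library. *Atp6v1e2*, a testis form of a proton pump subunit, had 141, 99.0 and 93.3 CPM in round spermatids, against 4.90, 4.04 and 4.56 CPM in spermatocytes (log2 fold change 4.53 ± 0.51, adjusted p = 7.68e-05). *Prr30* had 201, 176 and 112 CPM in round spermatids, against 7.36, 4.04 and 9.11 CPM in spermatocytes (log2 fold change 4.45 ± 0.48, adjusted p = 5.74e-05). These 5 genes overlap no gene that the tables place on the opposite strand. *Plcz1*, the sperm phospholipase that starts calcium waves in the egg (strand not in the tables), had 212, 185 and 152 CPM in round spermatids, against 17.2, 16.2 and 18.2 CPM in spermatocytes (log2 fold change 3.38 ± 0.37, adjusted p = 6.57e-05). *Ccdc67*, a centriole amplification protein with *4930540M03Rik* on the opposite strand, had 192, 152 and 177 CPM in round spermatids, against 17.2, 12.1 and 13.7 CPM in spermatocytes (log2 fold change 3.56 ± 0.38, adjusted p = 5.74e-05). The others were *1700034J05Rik* (opposite *Ppfibp1*), *1700013G24Rik* (opposite *Gm13010*), *Fbxl13* (opposite *Lrrc17*), *BC089491* (strand not in the tables), *Pdilt*, *Ropn1*, *Aldoart2* and *Akap4*, with log2 fold changes between 3.53 and 5.53.

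**Figure D2:**
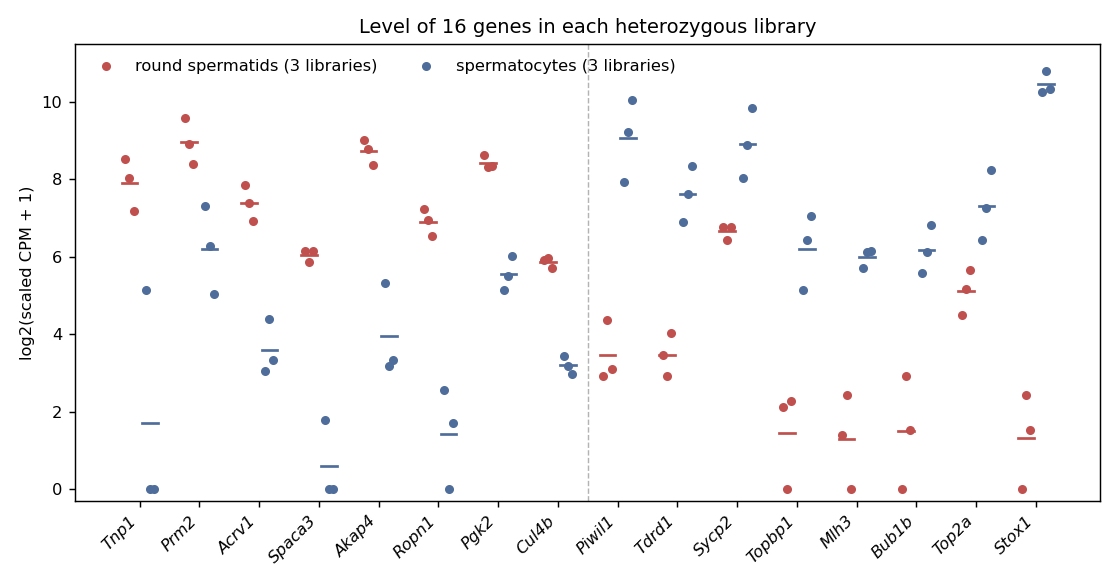
Level of 16 genes, as log2(scaled CPM + 1), in each of 3 round spermatid and 3 spermatocyte libraries; short lines are means, and a dashed line parts 8 genes higher in round spermatids from 8 genes lower in them. In *Tnp1* replicate 1, at 34.3 CPM, was the only spermatocyte library above 0, and *Piwil1* ran from 6.63 to 19.8 CPM in round spermatids against 245 to 1055 CPM in spermatocytes.

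Genes of histone replacement were more often higher than lower in round spermatids. Of 19 tested members of this list of 32 genes, 11 passed as higher, 1 as lower and 7 did not pass. The median log2 fold change was 1.43, and over all features 25.9% were higher and 23.8% lower. *Tnp1*, a transition protein that takes the place of histones before protamines, had 369.7, 262 and 145 CPM in round spermatids, against 34.3, 0 and 0 CPM in spermatocytes (log2 fold change 4.35 ± 0.83, adjusted p = 0.00162). Its round spermatid libraries differed by more than 2-fold among themselves, and replicate 1 of either cell type was the highest. *Prm2*, a protamine, had 764, 486 and 339 CPM in round spermatids, against 159, 76.7 and 31.9 CPM in spermatocytes (log2 fold change 2.56 ± 0.52, adjusted p = 0.00215). *H1fnt*, a linker histone of spermatids, had 250.3, 185 and 124 CPM in round spermatids, against 29.4, 0 and 6.83 CPM in spermatocytes (log2 fold change 3.79 ± 0.65, adjusted p = 0.000849). Both had their highest value in replicate 1 in either cell type. The chromatin remodeller *Chd5* had 436, 244 and 211 CPM in round spermatids, against 83.4, 36.3 and 13.7 CPM in spermatocytes (log2 fold change 2.73 ± 0.54, adjusted p = 0.00199). *Cdyl*, a chromodomain protein, had 76.3, 61.6 and 45.7 CPM in round spermatids, against 4.90, 0 and 11.4 CPM in spermatocytes (log2 fold change 3.25 ± 0.66, adjusted p = 0.00219). In all 5 the groups did not overlap (32.5% over all tested features in this direction), while the 3 spermatocyte libraries differed several-fold. *Prm1* and *Tnp2*, the other protamine and transition protein genes, were chosen after their values were seen. *Prm1* had 479, 367 and 295 CPM in round spermatids, against 159, 76.7 and 43.3 CPM in spermatocytes (log2 fold change 2.02 ± 0.44, adjusted p = 0.00324). *Tnp2* had 494, 365 and 248 CPM in round spermatids, against 164, 133 and 112 CPM in spermatocytes (log2 fold change 1.43 ± 0.34, adjusted p = 0.00494). The exception was *H3f3b*, which encodes the replacement histone H3.3, with 38.1, 35.2 and 38.1 CPM in round spermatids, against 80.9, 133 and 298 CPM in spermatocytes (log2 fold change -2.20 ± 0.48, adjusted p = 0.00322). *Hspa2*, the chaperone of transition proteins, had the largest p of the list, with 877, 689 and 741 CPM in round spermatids, against 488, 880.3 and 1378 CPM in spermatocytes (log2 fold change -0.25 ± 0.35, adjusted p = 0.572), and its groups overlapped. In testes of other animals 17 of 26 measured members were higher and 1 lower at P28 than at P18. Of all features tested there 31.4% were higher and 30.8% lower. The fit with the knockout libraries gave 5 higher and 0 lower members, and leaving out spermatocyte replicate 1 gave 13 and 3.

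Acrosome and sperm surface genes were mostly higher in round spermatids. Of 40 tested members of 47, 33 were higher, 0 lower (0 also at an unadjusted p below 0.05, in DESeq2 and in limma) and 7 did not pass. Their median was 1.99, and over all features 25.9% were higher and 23.8% lower. *Acrv1*, an acrosomal matrix protein, had 230.4, 167 and 120.0 CPM in round spermatids, against 7.36, 20.2 and 9.11 CPM in spermatocytes (log2 fold change 3.90 ± 0.49, adjusted p = 0.000137). *Spaca3*, a lysozyme-like acrosomal protein, had 69.6, 57.2 and 70.5 CPM in round spermatids, against 2.45, 0 and 0 CPM in spermatocytes (log2 fold change 5.80 ± 0.77, adjusted p = 0.000215). *Spaca7*, another acrosomal protein, had 99.5, 103 and 81.9 CPM in round spermatids, against 4.90, 4.04 and 0 CPM in spermatocytes (log2 fold change 4.96 ± 0.65, adjusted p = 0.000195). These 3 genes had at most 5 reads in any spermatocyte library. *Actl7b*, an actin-like protein of the head cytoskeleton, had 429, 348 and 246 CPM in round spermatids, against 66.2, 36.3 and 59.2 CPM in spermatocytes (log2 fold change 2.63 ± 0.36, adjusted p = 0.000235) and was measurable in every library. *Pdilt*, a testis disulfide isomerase-like chaperone with *Acsm5* on the opposite strand, had 189, 220.0 and 143 CPM in round spermatids, against 17.2, 8.08 and 15.9 CPM in spermatocytes (log2 fold change 3.65 ± 0.41, adjusted p = 7.95e-05). *Gsg1*, with *LOC115490439* on the opposite strand, had 269, 253 and 162 CPM in round spermatids, against 22.1, 20.2 and 4.56 CPM in spermatocytes (log2 fold change 3.90 ± 0.50, adjusted p = 0.000156). All of these were higher in each round spermatid library than in any spermatocyte library (32.5% over all tested features), whereas the next gene overlapped. *Adam2*, a fertilin subunit already made in spermatocytes (strand not in the tables), had 300.0, 295 and 211 CPM in round spermatids, against 228, 222 and 403 CPM in spermatocytes (log2 fold change -0.09 ± 0.32, adjusted p = 0.836) and was the member with the largest p. In testes 45 of 46 measured members were higher at P28 than at P18, beside 31.4% higher and 30.8% lower of all 16334 features tested there. Leaving out 1 library at a time gave 28 to 34 higher and 0 or 1 lower members (1 without round spermatid replicate 1 or 2 or spermatocyte replicate 1 or 3), and 16 were higher in the fit with the knockout libraries.

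Genes of the accessory structures of the flagellum had the same direction. Of 47 tested members of 51, 36 were higher, 0 lower and 11 did not pass, with a median of 1.96. The shares over all features were 25.9% higher and 23.8% lower. At an unadjusted p below 0.05 the lower members numbered 1 in edgeR, and DESeq2 called 0 and limma 2. *Akap4*, the X-linked main protein of the fibrous sheath, had 522, 438 and 328 CPM in round spermatids, against 39.2, 8.08 and 9.11 CPM in spermatocytes (log2 fold change 4.43 ± 0.51, adjusted p = 9.03e-05). *Ropn1*, a fibrous sheath protein, had 149, 123 and 91.4 CPM in round spermatids, against 4.90, 0 and 2.28 CPM in spermatocytes (log2 fold change 5.35 ± 0.61, adjusted p = 8.35e-05). *Spata19*, a protein of the mitochondrial sheath, had 184, 235 and 204 CPM in round spermatids, against 27.0, 20.2 and 9.11 CPM in spermatocytes (log2 fold change 3.47 ± 0.42, adjusted p = 0.000118). In each of them the lowest round spermatid library lay over 4-fold above the highest spermatocyte library. Of the sperm calcium channel, *Catsper4* had 174, 110.0 and 91.4 CPM in round spermatids, against 12.3, 8.08 and 4.56 CPM in spermatocytes (log2 fold change 3.88 ± 0.52, adjusted p = 0.000212). *Catsper1* (strand not in the tables) had 72.9, 90.2 and 68.6 CPM in round spermatids, against 0, 4.04 and 2.28 CPM in spermatocytes (log2 fold change 5.18 ± 0.69, adjusted p = 0.000212). *Smcp*, a protein of the mitochondrial capsule with *Gm35639* on the opposite strand, had 579, 549.9 and 274 CPM in round spermatids, against 39.2, 20.2 and 9.11 CPM in spermatocytes (log2 fold change 4.34 ± 0.51, adjusted p = 9.47e-05). The channel subunits and *Smcp* had no overlap between the cell types (32.5% over all tested features in this direction). In round spermatids replicate 3 was the lowest. *Odf1*, of the outer dense fibres (strand not in the tables), had 323, 301 and 206 CPM in round spermatids, against 49.0, 20.2 and 9.11 CPM in spermatocytes (log2 fold change 3.38 ± 0.50, adjusted p = 0.000379). *Fscb*, a fibrous sheath protein, had 144, 141 and 139 CPM in round spermatids, against 22.1, 16.2 and 9.11 CPM in spermatocytes (log2 fold change 3.15 ± 0.42, adjusted p = 0.000215). Both are also members of the elongating spermatid list, of which 19 of 22 tested members were higher. In testes 49 of 50 measured members were higher at P28 than at P18, beside 31.4% of all features tested there. Leaving out 1 library at a time gave 27 to 35 higher members, with 3 lower without spermatocyte replicate 1 and 1 without replicate 3, and 16 were higher in the fit with the knockout libraries.

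Axoneme genes, which encode the microtubule core of the tail, included genes of both directions. Of 43 tested members of 60, 12 were higher, 7 lower and 24 did not pass, with a median of 0.29, beside 25.9% higher and 23.8% lower over all features. *Ccdc65*, a regulator of dynein, had 285, 290.4 and 249.5 CPM in round spermatids, against 61.3, 44.4 and 88.8 CPM in spermatocytes (log2 fold change 2.05 ± 0.33, adjusted p = 0.00061). *Ccdc63*, an outer arm docking protein (strand not in the tables), had 232, 187 and 149 CPM in round spermatids, against 29.4, 24.2 and 2.28 CPM in spermatocytes (log2 fold change 3.39 ± 0.57, adjusted p = 0.000739). The X-linked *Ribc1*, with *Gm39540* and *Smc1a* on the opposite strand, had 48.1, 48.4 and 26.7 CPM in round spermatids, against 4.90, 0 and 0 CPM in spermatocytes (log2 fold change 4.30 ± 0.83, adjusted p = 0.00168). In these 3 genes each round spermatid library was above each spermatocyte library (32.5% over all tested features). The radial spoke gene *Rsph1* (strand not in the tables) went the other way, with 403, 383 and 518 CPM in round spermatids, against 1165, 1232 and 1314 CPM in spermatocytes (log2 fold change -1.51 ± 0.26, adjusted p = 0.000895). The lower calls numbered 11 without spermatocyte replicate 1, 2 without spermatocyte replicate 2 or round spermatid replicate 3, and 0 in the fit with the knockout libraries, where 2 were higher. Scaling by total counts gave 16 higher and 2 lower. In testes 40 of 49 measured members were higher at P28 than at P18, beside 31.4% of all features tested there.

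**Figure D3:**
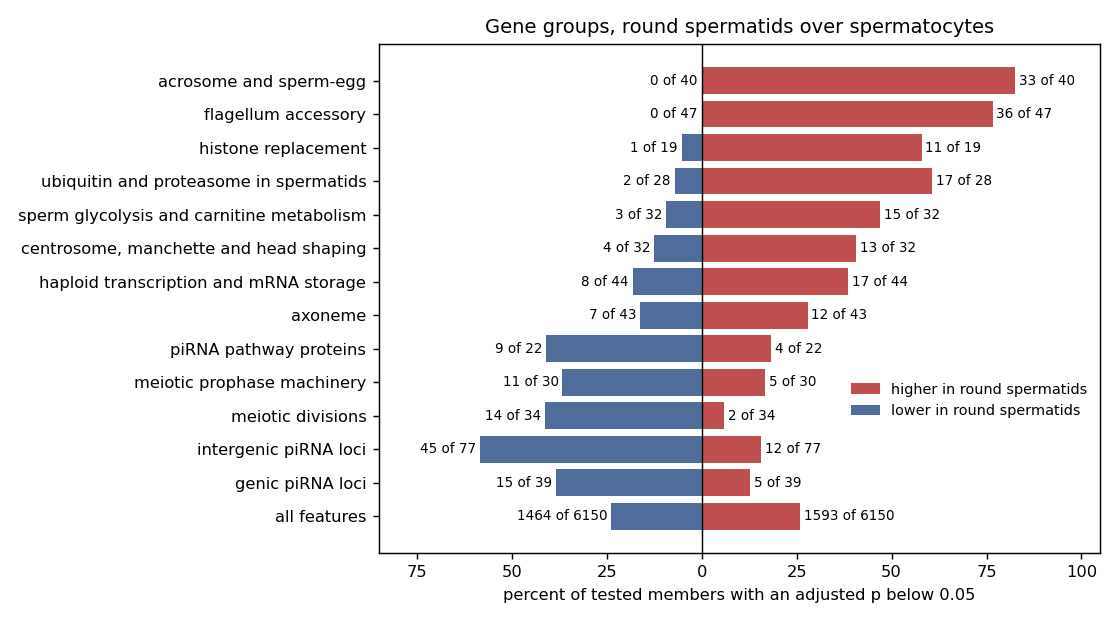
Percent of tested members of 11 gene lists, of the piRNA loci and of all features that were higher (bars to the right) or lower (to the left) in round spermatids than in spermatocytes at an adjusted p below 0.05, with their numbers. Acrosome genes reached 33 of 40 higher and intergenic piRNA loci 45 of 77 lower, against 1593 and 1464 of 6150 over all features.

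Many genes of sperm energy metabolism are germ cell copies of housekeeping enzymes. Of 32 tested members 15 were higher, 3 lower and 14 did not pass (median 0.66), beside 25.9% higher and 23.8% lower over all features. In the fit with the knockout libraries 8 were higher and 2 lower. *Pgk2*, the retrogene copy of the X-linked phosphoglycerate kinase gene, had 396, 321 and 322 CPM in round spermatids, against 34.3, 44.4 and 63.8 CPM in spermatocytes (log2 fold change 2.85 ± 0.34, adjusted p = 0.000106). *Aldoart2*, an aldolase retrogene, had 197, 180.4 and 137 CPM in round spermatids, against 19.6, 12.1 and 11.4 CPM in spermatocytes (log2 fold change 3.53 ± 0.41, adjusted p = 8.70e-05). *Atp1a4*, the sperm sodium pump subunit, had 181, 246 and 124 CPM in round spermatids, against 27.0, 28.3 and 4.56 CPM in spermatocytes (log2 fold change 3.26 ± 0.54, adjusted p = 0.000699). All 3 had no overlap between the cell types (32.5% over all tested features in this direction). *Slc16a7*, a lactate and pyruvate transporter, had 298, 341 and 221 CPM in round spermatids, against 9.81, 24.2 and 43.3 CPM in spermatocytes (log2 fold change 3.44 ± 0.46, adjusted p = 0.000222). *Gykl1*, a glycerol kinase-like retrogene, had 337, 403 and 282 CPM in round spermatids, against 88.3, 44.4 and 68.3 CPM in spermatocytes (log2 fold change 2.31 ± 0.34, adjusted p = 0.000349). The strand of both is not in the tables. The glucose transporter gene *Slc2a3* (strand not in the tables) was lower, with 126, 141 and 149 CPM in round spermatids, against 954, 1522 and 1806 CPM in spermatocytes (log2 fold change -3.36 ± 0.32, adjusted p = 3.12e-05). Of 9 tested autosomal retrogene partners of X genes, 6 were higher and 1 lower. *Gk2*, with *4930467D21Rik* on the opposite strand, had a log2 fold change of 1.78, *Ubl4b*, with *Gm36097* on the opposite strand, 3.28, and *Cetn1* (strand not in the tables) 0.75. The lower one was *Pdha2*, a pyruvate dehydrogenase subunit known for its meiotic expression, with 94.5, 108 and 95.2 CPM in round spermatids, against 191, 189.8 and 205 CPM in spermatocytes (log2 fold change -0.98 ± 0.29, adjusted p = 0.0155). *Cetn1* lost its call whichever of the 6 libraries was left out (adjusted p = 0.0514 to 0.193), and *Pdha2* lost its call without round spermatid replicate 1 or 3 (up to 0.0651).

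Regulators of haploid transcription and mRNA storage included genes of both directions: 17 of 44 tested members were higher, 8 lower and 19 did not pass (median 0.24), beside 25.9% higher and 23.8% lower over all features. *Hmgb4*, a chromatin protein of spermatids, had 153, 129.8 and 89.5 CPM in round spermatids, against 9.81, 8.08 and 6.83 CPM in spermatocytes (log2 fold change 3.87 ± 0.47, adjusted p = 0.000118). *Hmgb2*, its relative of earlier germ cells, had 8.29, 2.20 and 3.81 CPM in round spermatids, against 61.3, 76.7 and 54.7 CPM in spermatocytes (log2 fold change -3.61 ± 0.56, adjusted p = 0.000511). *Spz1*, a testis transcription factor, had 477, 469 and 389 CPM in round spermatids, against 123, 56.5 and 29.6 CPM in spermatocytes (log2 fold change 2.66 ± 0.44, adjusted p = 0.000714). *Cpeb2*, a regulator of stored mRNAs (strand not in the tables), had 429, 387 and 354 CPM in round spermatids, against 95.6, 117 and 116 CPM in spermatocytes (log2 fold change 1.83 ± 0.28, adjusted p = 0.000469). These 4 genes did not overlap between cell types (over all tested features 32.5% in the higher and 28% in the lower direction). *Dazl*, a translation activator of the germ line, was lower, with 4.97, 2.20 and 1.90 CPM in round spermatids, against 41.7, 48.5 and 129.8 CPM in spermatocytes (log2 fold change -4.45 ± 0.70, adjusted p = 0.000534). *Khdrbs1*, whose product is the splicing regulator Sam68 (strand not in the tables), was lower too, with 13.3, 24.2 and 13.3 CPM in round spermatids, against 80.9, 145 and 116 CPM in spermatocytes (log2 fold change -2.74 ± 0.44, adjusted p = 0.000606). Without spermatocyte replicate 2 the higher members numbered 11, and the fit with the knockout libraries gave 5 higher and 1 lower.

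Of 28 tested ubiquitin ligases, adaptors and proteasome forms of late germ cells, 17 were higher, 2 lower and 9 did not pass (median 1.04). The shares over all features were 25.9% higher and 23.8% lower. In the fit with the knockout libraries 5 members were higher and 1 lower. *Klhl10*, an adaptor of a cullin ligase with *Nt5c3b* on the opposite strand, had 202, 191 and 149 CPM in round spermatids, against 24.5, 16.2 and 11.4 CPM in spermatocytes (log2 fold change 3.36 ± 0.41, adjusted p = 0.000116). *Rnf151* and *Rnf133* encode RING-type ligases of spermatids. *Rnf151* had 171, 74.8 and 64.8 CPM in round spermatids, against 9.81, 8.08 and 6.83 CPM in spermatocytes (log2 fold change 3.62 ± 0.57, adjusted p = 0.000545). *Rnf133* had 33.2, 72.6 and 24.8 CPM in round spermatids, against 2.45, 0 and 0 CPM in spermatocytes (log2 fold change 5.19 ± 0.94, adjusted p = 0.0012). *Trim36* (strand not in the tables) had a log2 fold change of 3.20. *Psma8*, the proteasome subunit known for its role in meiosis (strand not in the tables), was lower, with 6.63, 8.80 and 11.4 CPM in round spermatids, against 93.2, 182 and 230.1 CPM in spermatocytes (log2 fold change -4.20 ± 0.49, adjusted p = 9.47e-05).

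Of the genes of the centrosome, manchette and head shaping, 13 of 32 tested were higher, 4 lower and 15 did not pass (median 0.83), beside 25.9% higher and 23.8% lower over all features. In the fit with the knockout libraries 4 were higher and 4 lower. *Sun5*, which joins head and tail, had 79.6, 70.4 and 61.0 CPM in round spermatids, against 7.36, 4.04 and 4.56 CPM in spermatocytes (log2 fold change 3.62 ± 0.53, adjusted p = 0.000354). *Clip1*, a microtubule end protein, had 161, 180.4 and 124 CPM in round spermatids, against 24.5, 12.1 and 15.9 CPM in spermatocytes (log2 fold change 3.08 ± 0.41, adjusted p = 0.000205). *Fam46c*, of sperm head-tail attachment, had 177, 176 and 168 CPM in round spermatids, against 22.1, 20.2 and 27.3 CPM in spermatocytes (log2 fold change 2.87 ± 0.35, adjusted p = 0.000124). *Spata6*, a protein of the tail's connecting piece with *Gm33192* on the opposite strand, had a log2 fold change of 2.40. On the other side, *Lbr*, the lamin B receptor of the nuclear envelope, had 43.1, 24.2 and 45.7 CPM in round spermatids, against 324, 416 and 389.5 CPM in spermatocytes (log2 fold change -3.30 ± 0.34, adjusted p = 4.49e-05). *Iqcg*, a gene of a calmodulin-binding protein, had 191, 185 and 164 CPM in round spermatids, against 1419.6, 1744 and 1392 CPM in spermatocytes (log2 fold change -3.08 ± 0.27, adjusted p = 2.20e-05), and *Lrch3* on its opposite strand was also lower (log2 fold change -2.72).

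The X chromosome took a larger share of counts in round spermatids than in spermatocytes. It took 0.565%, 0.464% and 0.362% of counts in the round spermatid libraries, against 0.142%, 0.0736% and 0.125% in the spermatocyte libraries. The mean share was 0.464% ± 0.101 in round spermatids and 0.114% ± 0.0356 in spermatocytes (SD, n = 3 each), a 4.08-fold difference with no overlap (two-sided exact permutation test, p = 0.10, the smallest that 3 against 3 libraries allow). This share uses all 1052 X features, whatever their level. Of 34 X features that passed the low-count filter, 28 were higher, 1 was lower and 5 did not pass, beside 25.9% and 23.8% over all features. An X feature near 0 in spermatocytes could pass that filter only through round spermatids, so the counts over these 34 are a description. With no filter 67 were higher and 9 lower. The median log2 fold change of the 34 was 2.65, while those of the 19 autosomes lay between -0.07 and 0.34. Of the 17 tested X features with no opposite-strand gene, 15 were higher and 0 lower (0 also at an unadjusted p below 0.05, in DESeq2 and in limma), and 10 were higher when that class was fitted alone.

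**Figure D4:**
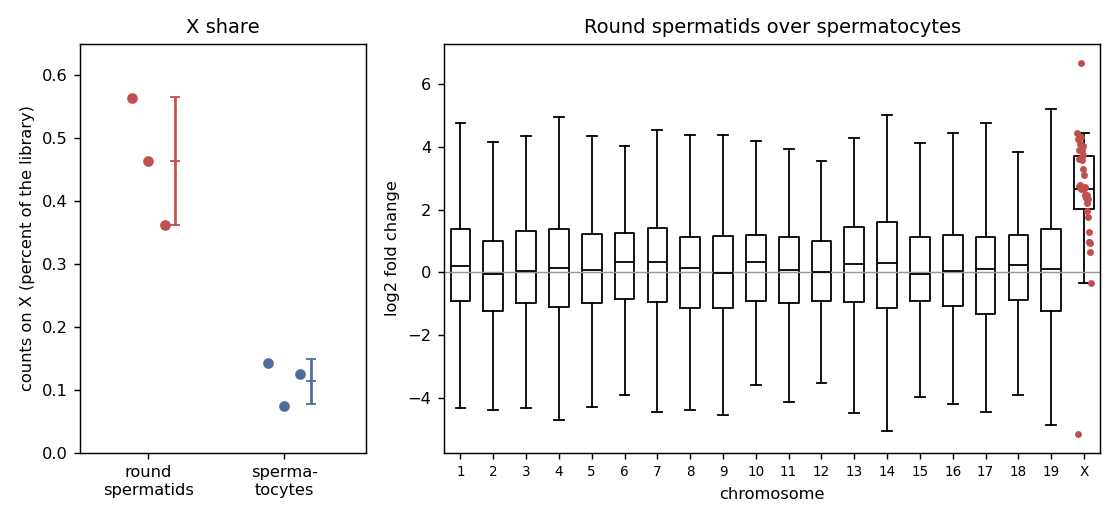
Left, counts on X as a percent of each library, for 3 round spermatid and 3 spermatocyte libraries, with mean ± SD; right, log2 fold change (round spermatids over spermatocytes) of tested features by chromosome, as boxes with the median, quartiles and whiskers to 1.5 times the quartile range, and all 34 X features as points. The X share was 0.362% to 0.565% in round spermatids against 0.0736% to 0.142% in spermatocytes, and the X median was 2.65.

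Both spermatid genes and widely expressed genes of the X chromosome were among them. Of 4 tested members of a list of 34 sex-linked spermatid genes 4 were higher, and 10 of the 22 listed in the tables had 0 counts in all 6 libraries. *Cypt3*, of a spermatid cysteine-rich protein family, had 26.5, 55.0 and 21.0 CPM in round spermatids, against 4.90, 0 and 0 CPM in spermatocytes (log2 fold change 4.02 ± 0.90, adjusted p = 0.0039). *Cylc1*, a cylicin of the sperm head cytoskeleton, had 44.8, 63.8 and 34.3 CPM in round spermatids, against 9.81, 4.04 and 0 CPM in spermatocytes (log2 fold change 3.29 ± 0.74, adjusted p = 0.00414). *1700013H16Rik* had 36.5, 28.6 and 21.0 CPM in round spermatids, against 7.36, 12.1 and 6.83 CPM in spermatocytes (log2 fold change 1.75 ± 0.55, adjusted p = 0.0222), and lost its call when any 1 library other than round spermatid replicate 3 was left out (adjusted p up to 0.116). Reads of members of multicopy families can be split between copies. Of 7 tested X housekeeping genes 5 were higher, 0 lower (0 also at an unadjusted p below 0.05, in DESeq2 and in limma) and 2 did not pass. Over all tested features 25.9% were higher and 23.8% lower. *Pdha1*, a pyruvate dehydrogenase subunit gene named after its values were seen, was not tested in this fit and had 0, 0 and 0 counts in round spermatids, against 17, 2 and 30 counts in spermatocytes. It was lower without round spermatid replicate 1, 2 or 3 or spermatocyte replicate 2, in the fit with the knockout libraries and with no filter. *Cul4b*, a cullin, had 59.7, 61.6 and 51.4 CPM in round spermatids, against 9.81, 8.08 and 6.83 CPM in spermatocytes (log2 fold change 2.76 ± 0.50, adjusted p = 0.00116). *Uba1*, the ubiquitin-activating enzyme, had 61.3, 35.2 and 30.5 CPM in round spermatids, against 14.7, 0 and 6.83 CPM in spermatocytes (log2 fold change 2.38 ± 0.69, adjusted p = 0.0146). *Cstf2*, a polyadenylation factor with *Nox1* on the opposite strand, *Gspt2* and *Usp9x* (strands not in the tables) had log2 fold changes of 2.47, 2.35 and 1.29. *Huwe1*, a large ubiquitin ligase, did not pass, with 101, 83.6 and 34.3 CPM in round spermatids, against 56.4, 32.3 and 50.1 CPM in spermatocytes (log2 fold change 0.63 ± 0.47, adjusted p = 0.278). Without spermatocyte replicate 2, *Cul4b* alone of the housekeeping genes passed as higher and *Pdha1* alone as lower. *Cstf2* failed without that library alone (adjusted p = 0.0523), *Uba1* also without round spermatid replicate 1 (up to 0.0680), *Gspt2* whichever library but spermatocyte replicate 1 was left out (up to 0.119) and *Usp9x* whichever was left out (up to 0.173). In the knockouts, whose round spermatid label the markers go against (below), all 7 passed as higher, where 12.5% of all tested features did. Log2 fold changes there ran from 3.54 (*Fmr1*, which did not pass in heterozygotes) to 6.61 (*Cul4b*). The step was larger in knockouts than in heterozygotes for *Cul4b* (edgeR, adjusted p = 0.0382) and *Huwe1* (0.00357). In testes, which hold all stages and somatic cells, 4 of 55 X housekeeping genes were higher and 33 lower at P28 than at P18. Of all features tested there 31.4% were higher and 30.8% lower.

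On the spermatocyte side, the features with the smallest p included several that were near 0 in whole testes. *Stox1*, a winged-helix gene with no annotated opposite-strand gene, had 0, 4.40 and 1.90 CPM in round spermatids, against 1236, 1797 and 1287 CPM in spermatocytes (log2 fold change -9.36 ± 0.55, adjusted p = 3.74e-06). Testes held 0.0705 CPM at P28 and 0 CPM at P18. *Fam174b* had 44.8, 35.2 and 38.1 CPM in round spermatids, against 1883, 1708 and 1314 CPM in spermatocytes (log2 fold change -5.36 ± 0.33, adjusted p = 3.74e-06). In testes it had 0.281 CPM at P28 and 0.606 CPM at P18. *Gm5577* had 126, 152 and 156 CPM in round spermatids, against 3048, 3683 and 2387 CPM in spermatocytes (log2 fold change -4.39 ± 0.31, adjusted p = 7.14e-06) and 0 CPM in testes at both ages. These 3 features were thus abundant in spermatocyte libraries and at under 1 CPM in testes. *Pigq*, an enzyme of membrane anchor synthesis, had 24.9, 37.4 and 22.9 CPM in round spermatids, against 1576, 1781 and 1237 CPM in spermatocytes (log2 fold change -5.75 ± 0.35, adjusted p = 3.74e-06) and was present in testes, with 51.7 CPM at P28 and 75.6 CPM at P18. The lower features also held some of those with most counts in spermatocytes. *Dnajc1* had 184, 317 and 286 CPM in round spermatids, against 12006, 16959 and 12162 CPM in spermatocytes (log2 fold change -5.71 ± 0.36, adjusted p = 3.74e-06). On its opposite strand lies *Mllt10*, which was also lower under its own name (log2 fold change -3.82) and had 484 CPM in P28 testes, against 38.2 CPM for *Dnajc1* (not corrected for length). *Chpt1*, an enzyme of phosphatidylcholine synthesis, had 162, 134 and 141 CPM in round spermatids, against 2959, 4183 and 3538 CPM in spermatocytes (log2 fold change -4.60 ± 0.30, adjusted p = 4.67e-06). Its opposite-strand neighbour *Sycp3*, the axial element gene of meiotic chromosomes, had 194, 187 and 137 CPM in round spermatids, against 311, 311 and 446 CPM in spermatocytes (log2 fold change -1.05 ± 0.30, adjusted p = 0.0136). The remaining ones had opposite-strand genes in *Gm15545* (*Bcl2l12*), *Adcy3* (*Cenpo*), *Slc24a5* (*Myef2*), *Gm16973* (*Mphosph8*), *Zfp820* (*Gm31758*), *Atg4d* (*Kri1*) and *Mettl5* (*Ssb*), none in *Gm1976*, and an unknown strand in *Ints8*, with log2 fold changes between -8.72 and -4.35. The cell types overlapped in none of the 15, by the rule that chose them, and which strand their reads came from was not tested. Of the opposite-strand genes that were tested under their own names, *Bcl2l12*, *Myef2*, *Mphosph8*, *Kri1* and *Ssb* were lower as well, with log2 fold changes between -3.59 and -1.85, and *Cenpo* did not pass.

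Genes of meiotic prophase were more often lower than higher. Of 30 tested members of 63, 11 were lower, 5 higher and 14 did not pass, with a median of -0.47, beside 23.8% lower and 25.9% higher over all features. The list summed to 3329, 3295 and 3409.8 CPM in round spermatids, against 5440.5, 7232 and 8759 CPM in spermatocytes. *Sycp2*, an axial element protein, had 108, 85.8 and 109 CPM in round spermatids, against 259.9, 472 and 920.3 CPM in spermatocytes (log2 fold change -2.45 ± 0.43, adjusted p = 0.000996). *Topbp1*, a DNA damage signalling protein that takes part in silencing the sex chromosomes, had 3.32, 0 and 3.81 CPM in round spermatids, against 34.3, 84.8 and 132 CPM in spermatocytes (log2 fold change -4.92 ± 0.77, adjusted p = 0.00052). *Mlh3*, a crossover mismatch repair protein, had 1.66, 4.40 and 0 CPM in round spermatids, against 51.5, 68.6 and 70.6 CPM in spermatocytes (log2 fold change -4.86 ± 0.69, adjusted p = 0.000306). All 3 were higher in each spermatocyte library than in any round spermatid library (28% over all tested features). *Sycp2* and *Topbp1* were highest in spermatocyte replicate 3. *Cntd1*, needed for crossover maturation, had 529, 563 and 705 CPM in round spermatids, against 2697, 3412 and 2799.7 CPM in spermatocytes (log2 fold change -2.31 ± 0.27, adjusted p = 9.23e-05). *H2afx*, the damage-signalling histone variant (strand not in the tables), had 0, 4.40 and 5.71 CPM in round spermatids, against 44.1, 40.4 and 77.5 CPM in spermatocytes (log2 fold change -3.98 ± 0.72, adjusted p = 0.00119). *Rec8*, which encodes a meiotic cohesin, went the other way, with 66.3, 46.2 and 53.3 CPM in round spermatids, against 2.45, 0 and 4.56 CPM in spermatocytes (log2 fold change 4.23 ± 0.67, adjusted p = 0.000539) and 109 CPM at P28 and 17.9 CPM at P18 in testes. *Stag3*, also a meiotic cohesin subunit, with *Gpc2* on the opposite strand, had the largest p of the list, with 177, 185 and 223 CPM in round spermatids, against 73.6, 198 and 305 CPM in spermatocytes (log2 fold change 0.02 ± 0.43, adjusted p = 0.973). In testes 11 of 57 measured members were higher and 35 lower at P28 than at P18, beside 31.4% and 30.8% over all features. The imbalance nearly ended under scaling by total counts, with 9 lower and 8 higher members.

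Genes of the meiotic divisions were lower in 14 of 34 tested members of 59, higher in 2 and not passing in 18 (median -0.53). Over all tested features 23.8% were lower and 25.9% higher. *Bub1b*, a spindle checkpoint kinase, had 0, 6.60 and 1.90 CPM in round spermatids, against 46.6, 68.6 and 112 CPM in spermatocytes (log2 fold change -4.74 ± 0.76, adjusted p = 0.000598). *Cdca8*, a chromosomal passenger protein, had 3.32, 4.40 and 9.52 CPM in round spermatids, against 36.8, 32.3 and 47.8 CPM in spermatocytes (log2 fold change -2.73 ± 0.57, adjusted p = 0.00252). *Top2a*, a topoisomerase of chromosome condensation, had 21.6, 35.2 and 49.5 CPM in round spermatids, against 85.8, 153 and 301 CPM in spermatocytes (log2 fold change -2.35 ± 0.50, adjusted p = 0.00296). In these 3 genes the cell types did not overlap (28% over all tested features in this direction). *Ccna2*, a cyclin, had 84.5, 156 and 114 CPM in round spermatids, against 620.3, 662 and 378 CPM in spermatocytes (log2 fold change -2.23 ± 0.35, adjusted p = 0.00048). *Kif20a*, a kinesin of cytokinesis, had 118, 147 and 181 CPM in round spermatids, against 679, 819.7 and 558 CPM in spermatocytes (log2 fold change -2.20 ± 0.30, adjusted p = 0.000237). The strand of both is not in the tables. *Anln*, with *9530077C05Rik* on the opposite strand, had a log2 fold change of -1.87. Lower members numbered 10 to 15 for prophase and 11 to 16 for the divisions when 1 library at a time was left out, and 10 and 7 in the fit with the knockout libraries. In testes 20 of 59 measured members were higher and 12 lower at P28 than at P18, beside 31.4% and 30.8% over all features. Scaling by total counts gave 5 higher and 10 lower division genes.

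Proteins of the piRNA pathway were lower in 9 of 22 tested members, higher in 4 and not passing in 9 (median -0.35). Over all features 23.8% were lower and 25.9% higher. In the fit with the knockout libraries 5 members were lower. Scaling by total counts gave 6 higher and 7 lower. The list's sums overlapped, with 3221, 3306 and 3229 CPM in round spermatids, against 2817, 3840 and 5886 CPM in spermatocytes. In testes 10 of 32 measured members were higher and 14 lower at P28 than at P18, beside 31.4% and 30.8% over all features. *Piwil1*, the Piwi protein of pachytene piRNAs, had 6.63, 19.8 and 7.62 CPM in round spermatids, against 245, 594 and 1055 CPM in spermatocytes (log2 fold change -5.81 ± 0.63, adjusted p = 5.84e-05). *Tdrd1*, a germ granule scaffold, had 9.95, 6.60 and 15.2 CPM in round spermatids, against 118, 198 and 326 CPM in spermatocytes (log2 fold change -4.29 ± 0.51, adjusted p = 0.000101). *Piwil2*, another Piwi gene (strand not in the tables), had 6.63, 6.60 and 17.1 CPM in round spermatids, against 80.9, 157 and 303 CPM in spermatocytes (log2 fold change -4.13 ± 0.60, adjusted p = 0.000325). In all 3 the spermatocyte levels were lowest in replicate 1 and highest in replicate 3. *Gpat2* and *Exd1*, both known for piRNA production, were lower as well, with log2 fold changes of -2.80 and -2.70. *Mybl1*, the transcription factor A-MYB that drives pachytene piRNA precursors (strand not in the tables), had 3.32, 24.2 and 22.9 CPM in round spermatids, against 51.5, 105 and 134 CPM in spermatocytes (log2 fold change -2.55 ± 0.62, adjusted p = 0.00605). *Gtsf1*, a cofactor of Piwi proteins with *Gm52195* on the opposite strand, was higher, with 96.1, 185 and 143 CPM in round spermatids, against 27.0, 48.5 and 52.4 CPM in spermatocytes (log2 fold change 1.73 ± 0.41, adjusted p = 0.00505). The targeted gene of the series could not be measured at this depth. *Btbd18* had 2, 0 and 0 counts in the round spermatid libraries and 1, 1 and 1 in the spermatocyte libraries, at or below the floor of 3 counts.

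The piRNA loci of the tables, 100 intergenic and 114 genic ones, are counted under names of their own, and the tables do not give their strand or stage. Which transcripts their counts come from was not tested. Of 77 tested intergenic loci 45 were lower in round spermatids, 12 higher and 20 did not pass (median -1.83). Among all tested features 23.8% were lower and 25.9% higher. Of the 45 lower loci 37 fell more than 4-fold. The 45 lower loci together had 1152, 1384 and 1486 CPM in round spermatids, against 8147, 11544 and 12975 CPM in spermatocytes. The sums over all 100 intergenic loci overlapped, with 16865, 21573 and 18636 CPM in round spermatids, against 21134, 19083 and 18438 CPM in spermatocytes. The locus 13-qB1-1517 had 8025, 10273 and 8387 CPM in round spermatids, against 6473, 2750 and 754 CPM in spermatocytes. It did not pass (log2 fold change 1.42 ± 0.56, adjusted p = 0.0553). All 45, chosen here as called, were higher in each spermatocyte library than in any round spermatid library, as were 28% of all tested features. The locus 9-qF4-150 had 194, 284 and 259 CPM in round spermatids, against 2689.6, 4361 and 3264 CPM in spermatocytes (log2 fold change -3.81 ± 0.32, adjusted p = 1.74e-05). The locus 2-qF1-2536 had 8.29, 0 and 9.52 CPM in round spermatids, against 324, 468 and 731 CPM in spermatocytes (log2 fold change -6.29 ± 0.60, adjusted p = 3.12e-05). The locus 6-qF3-8009 had 19.9, 37.4 and 41.9 CPM in round spermatids, against 314, 497 and 693 CPM in spermatocytes (log2 fold change -3.92 ± 0.42, adjusted p = 5.37e-05). Among the spermatocyte libraries 33 of the 45 were lowest in replicate 1 and 36 highest in replicate 3. The loci 7-qD2-24830, 7-qD2-11976 and 5-qG3-23659 had log2 fold changes of -5.90, -5.29 and -5.15. In testes 33 of the 45 were lower at P28 than at P18 and 0 higher (0 also at an unadjusted p below 0.05), with a median log2 fold change of -0.66. Of all 99 intergenic loci tested in testes 59 (59.6%) were lower at P28 and 5 higher, beside 30.8% and 31.4% of all features.

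The 12 higher intergenic loci had the reverse order of libraries. Together they had 4361, 5825 and 5044 CPM in round spermatids, against 2910, 1486 and 1062 CPM in spermatocytes, and 11 of the 12 had their highest spermatocyte level in replicate 1. The cell types did not overlap at 10 of the 12, as at 32.5% of all tested features in this direction. The locus 14-qC1-1261 had 368, 420.2 and 449.6 CPM in round spermatids, against 132, 56.5 and 29.6 CPM in spermatocytes (log2 fold change 2.49 ± 0.46, adjusted p = 0.00129). The locus 11-qE1-9443 had 1175, 1663 and 1387 CPM in round spermatids, against 758, 404 and 200.5 CPM in spermatocytes (log2 fold change 1.63 ± 0.42, adjusted p = 0.00813). The locus 8-qA4-332 had 285, 277 and 192 CPM in round spermatids, against 108, 48.5 and 27.3 CPM in spermatocytes (log2 fold change 2.02 ± 0.45, adjusted p = 0.00387). The round spermatid libraries of these loci differed by less than 2-fold, while the spermatocyte libraries differed by over 3-fold. The loci 8-qA4-155, 2-qE5-4 and 7-qB5-6255 had log2 fold changes of 1.74, 1.66 and 1.19. Without spermatocyte replicate 2 or round spermatid replicate 2 only 6 loci were higher, without spermatocyte replicate 3 there were 7, and 1 in the fit with the knockout libraries. The lower loci numbered 41 to 46 when 1 library at a time was left out. In testes 3 of the 12 were higher and 6 lower at P28.

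Of 39 tested genic loci 15 were lower, 5 higher and 19 did not pass (median -0.44). The shares over all features were 23.8% lower and 25.9% higher. The 15 had 2288, 2660 and 2686 CPM in round spermatids, against 9255, 11459 and 8317 CPM in spermatocytes, with no overlap at any of them (28% over all tested features). At 4 of the 5 higher ones the cell types did not overlap (32.5%). The locus pi-Tef had 11.6, 24.2 and 28.6 CPM in round spermatids, against 468, 311 and 253 CPM in spermatocytes (log2 fold change -4.01 ± 0.42, adjusted p = 4.93e-05). The locus pi-Hjurp had 136, 249 and 198 CPM in round spermatids, against 1238, 1918 and 1050.2 CPM in spermatocytes (log2 fold change -2.85 ± 0.35, adjusted p = 0.000118). The loci pi-Ipmk and pi-Rnf169 had log2 fold changes of -2.97 and -3.71. On the higher side, pi-Rab11fip4 had 569, 814 and 709 CPM in round spermatids, against 269.7, 105 and 34.2 CPM in spermatocytes (log2 fold change 2.35 ± 0.55, adjusted p = 0.00524). The locus pi-Ip6k1 had 978, 1465 and 1185 CPM in round spermatids, against 748, 315 and 121 CPM in spermatocytes (log2 fold change 1.61 ± 0.51, adjusted p = 0.0226). In both, as in pi-Lpp and pi-Uhrf1bp1 (log2 fold changes 1.85 and 1.97), spermatocyte replicate 1 was the highest of its group. The 5 higher calls rested on few libraries, with 1 left without round spermatid replicate 2, round spermatid replicate 3 or spermatocyte replicate 2, and 8 without spermatocyte replicate 1. The adjusted p reached 0.103 for pi-Ip6k1, 0.137 for pi-Lpp and 0.116 for pi-Uhrf1bp1 without 1 library. In testes 12 of the 15 lower loci were lower at P28 and 1 was higher, beside 78 (72.2%) lower and 6 higher of all 108 genic loci tested there.

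**Figure D5:**
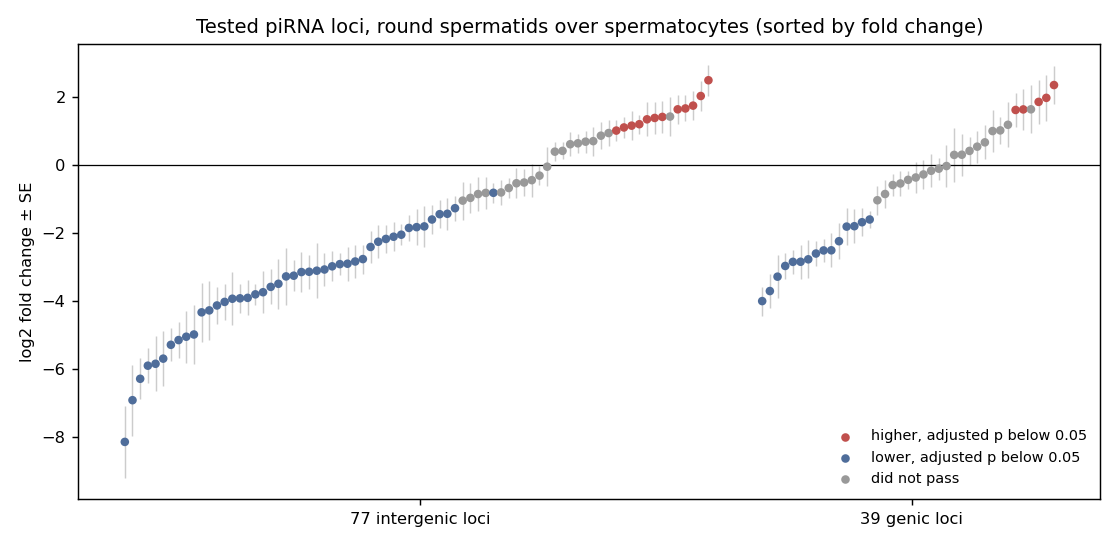
Log2 fold change ± SE (round spermatids over spermatocytes) of the 77 tested intergenic and the 39 tested genic piRNA loci, each sorted by fold change; red and blue points passed the test. Blue points, lower in round spermatids, number 45 and 15, and red points 12 and 5.

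Some of the features with most counts were shared by both cell types and were low in testes. *Gm166*, with *Phkg2* on the opposite strand, led both, with 25766, 27818 and 26669 CPM in round spermatids, against 37703, 37382 and 24014 CPM in spermatocytes (log2 fold change -0.30 ± 0.28, adjusted p = 0.379). In testes *Gm166* had 177 CPM at P28 and 43.9 CPM at P18, and *Phkg2* had 709 CPM at P28. These are shares of counts, not corrected for length. *Necab1* (strand not in the tables) had 8920.1, 13287 and 10890.4 CPM in round spermatids, against 15221, 15582 and 8308 CPM in spermatocytes (log2 fold change -0.24 ± 0.31, adjusted p = 0.538). In testes it had 0.981 CPM at P28 and 1.99 CPM at P18. *Cd72*, a B cell gene, had 3743, 5264 and 4701 CPM in round spermatids, against 5362, 5318 and 2519 CPM in spermatocytes (log2 fold change 0.05 ± 0.32, adjusted p = 0.9). In P28 testes it had 0.764 CPM, and *Tesk1*, a testis kinase gene on the opposite strand, had 1145 CPM. None of *Gm166*, *Necab1* and *Cd72* passed the test, and the cell types overlapped in each. *Ttc14* (strand not in the tables), *Map3k12* (opposite *Pcbp2*), *Rufy2* (opposite *Hnrnph3*) and *Mrps25* (opposite *Nr2c2*) were also among the 10 features with most counts in spermatocytes and were lower in round spermatids, with log2 fold changes of -2.58, -1.69, -3.02 and -3.75. *Cdip1* (opposite *Hmox2*), among the 10 leading features of round spermatids, had 5200.2, 7199.9 and 5406 CPM in round spermatids, against 4570.1, 2851 and 1251 CPM in spermatocytes (log2 fold change 1.04 ± 0.40, adjusted p = 0.0512) and did not pass.

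Ribosomal protein genes gave few calls, where 49.7% of all features passed in either direction, and few stress genes were tested. Of 14 tested ribosomal protein genes of 80, 1 was higher, 2 were lower and 11 did not pass. The 80 genes summed to 1091, 1150.5 and 929.6 CPM in round spermatids, against 1199, 1288 and 1339 CPM in spermatocytes. Each round spermatid library thus lay below each spermatocyte library, by less than 1.5-fold, under the TMM scaling. With the TMM factors (1.08 to 1.19 in round spermatids, 0.806 to 0.998 in spermatocytes) undone, the cell types overlap. *Rpl23* had 89.5, 163 and 61.0 CPM in round spermatids, against 44.1, 8.08 and 18.2 CPM in spermatocytes (log2 fold change 2.06 ± 0.57, adjusted p = 0.0117). *Rps25*, with *Ccdc84* on the opposite strand, had 6.63, 24.2 and 7.62 CPM in round spermatids, against 58.8, 113 and 109 CPM in spermatocytes (log2 fold change -2.89 ± 0.56, adjusted p = 0.0017). Many ribosomal protein genes have near-identical copies that can share their reads. Of 6 tested stress genes 3 were higher, 1 was lower and 2 did not pass. *Klf4*, a transcription factor that is also known in round spermatids, had 153, 123 and 166 CPM in round spermatids, against 31.9, 16.2 and 9.11 CPM in spermatocytes (log2 fold change 2.92 ± 0.46, adjusted p = 0.000529). *Jund*, a subunit of the AP-1 factor, had 166, 209 and 133 CPM in round spermatids, against 63.7, 16.2 and 27.3 CPM in spermatocytes (log2 fold change 2.18 ± 0.46, adjusted p = 0.00265). *Dnajb1*, a heat shock cochaperone, had a log2 fold change of 0.97. *Ddit3*, a stress factor with *Mbd6* on the opposite strand, had a log2 fold change of -1.09. Calls were lost for *Dnajb1* without round spermatid replicate 1 or 2 or spermatocyte replicate 2 (adjusted p up to 0.0748), for *Ddit3* without round spermatid replicate 2 or 3 (up to 0.0849), and for *Rpl23* without round spermatid replicate 2 or spermatocyte replicate 2 (up to 0.0666).

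The same features were followed in heterozygous testes of other animals, made with another kit, at P28, when round spermatids are present, and at P18, before most of them have formed. Of the 1593 features higher in round spermatids 1549 were tested in testes, and 1252 of them (80.8%) were higher and 99 (6.39%) lower at P28 than at P18, against 31.4% and 30.8% (together 62.3%) of all 16334 features tested there. Of the 1464 lower features 1359 were tested, and 571 (42.0%) were lower and 264 (19.4%) higher at P28. With testes scaled by total counts 1128 of the higher features were higher and 203 lower at P28, and of the lower features 893 were lower and 143 higher. The directions matched more often where no opposite-strand gene is annotated. There, 681 of 795 higher features (85.7%) were higher and 230 of 473 lower features (48.6%) were lower at P28, while with an opposite-strand gene the numbers were 318 of 427 (74.5%) and 190 of 560 (33.9%). *Tnp1* had 1011 CPM at P28 and 0.204 CPM at P18, *Akap4* 1629 CPM at P28 and 5.78 CPM at P18 and *Acrv1* 317 CPM at P28 and 5.02 CPM at P18 in testes. On the other side the ages differed less, with 869 CPM at P28 and 1063 CPM at P18 for *Piwil1*, 448 CPM at P28 and 648 CPM at P18 for *Tdrd1* and 562 CPM at P28 and 1183 CPM at P18 for *Sycp2*. Testes hold many cell types, whose shares differ between the ages.

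Promoter sequences of 5 genes are shown, 3 that were higher and 2 that were lower in round spermatids, because the data bear on groups of genes that moved together. They are RefSeq windows of build GRCm38.p6, printed 5′ to 3′ along the gene. Capitals in the first 3 mark TGANNTCA, the frame of the cAMP response element that the spermatid activator CREM binds, and in the last 2 AACGG or its reverse complement CCGTT, a core of MYB sites. Both motifs were chosen after the sequences had been seen and were searched on both strands. TGANNTCA reads the same on either strand and can share 1 end base with a match to the other motif.
Tnp1: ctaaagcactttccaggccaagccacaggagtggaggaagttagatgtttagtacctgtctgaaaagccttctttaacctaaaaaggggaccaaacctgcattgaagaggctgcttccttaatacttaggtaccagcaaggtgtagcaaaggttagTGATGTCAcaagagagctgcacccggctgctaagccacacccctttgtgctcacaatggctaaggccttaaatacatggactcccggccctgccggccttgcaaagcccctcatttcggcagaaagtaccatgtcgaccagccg
Akap4: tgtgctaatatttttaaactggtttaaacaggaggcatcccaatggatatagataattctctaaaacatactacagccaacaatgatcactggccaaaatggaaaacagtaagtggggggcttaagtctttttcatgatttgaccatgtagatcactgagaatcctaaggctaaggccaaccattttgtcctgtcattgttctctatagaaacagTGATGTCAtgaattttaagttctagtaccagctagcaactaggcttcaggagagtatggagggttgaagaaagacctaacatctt
Ropn1: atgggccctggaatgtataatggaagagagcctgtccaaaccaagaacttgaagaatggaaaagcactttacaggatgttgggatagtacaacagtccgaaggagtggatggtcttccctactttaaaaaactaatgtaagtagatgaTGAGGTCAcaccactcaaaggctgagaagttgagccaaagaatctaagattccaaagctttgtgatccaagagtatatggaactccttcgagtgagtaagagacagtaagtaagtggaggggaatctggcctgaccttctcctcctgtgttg
Piwil1: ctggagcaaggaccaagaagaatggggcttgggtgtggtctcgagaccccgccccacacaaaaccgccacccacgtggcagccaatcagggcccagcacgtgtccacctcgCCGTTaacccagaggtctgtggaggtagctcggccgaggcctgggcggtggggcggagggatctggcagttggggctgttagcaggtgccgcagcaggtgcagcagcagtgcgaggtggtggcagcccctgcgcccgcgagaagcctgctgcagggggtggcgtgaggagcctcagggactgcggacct
Sycp3: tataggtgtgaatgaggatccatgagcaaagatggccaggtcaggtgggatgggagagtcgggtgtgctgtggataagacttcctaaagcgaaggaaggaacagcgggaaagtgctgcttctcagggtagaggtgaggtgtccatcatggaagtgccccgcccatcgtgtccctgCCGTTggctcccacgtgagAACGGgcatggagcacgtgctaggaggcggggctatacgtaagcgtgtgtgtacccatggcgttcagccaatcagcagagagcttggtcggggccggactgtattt

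The windows lie at chr1:73015850-73016149 (minus strand) for *Tnp1*, chrX:7067265-7067564 (plus) for *Akap4*, chr16:34650961-34651260 (plus) for *Ropn1*, chr5:128735996-128736295 (plus) for *Piwil1* and chr10:88459337-88459636 (plus) for *Sycp3*, whose opposite-strand neighbour is *Chpt1*. The *Ropn1* window lies inside the annotated span of its gene, which begins at 34649832. The marked site of *Piwil1* also lies inside its gene's span, which begins at 128736071. TGANNTCA occurred in 17.7% of 1251 promoters of features higher in round spermatids and 10.2% of 1106 promoters of lower ones, against 11.6% of 4815 promoters of tested features and 14.3% of all 27025 promoters of the table. The full palindrome TGACGTCA occurred in 3.92% of the higher and 2.53% of the lower set, against 3.16% of tested promoters, and every such site is also a TGANNTCA. AACGG occurred in 21.4% of the higher and 24.1% of the lower set, against 25.3% of tested and 17.7% of all promoters. These shares are descriptions of letters in a window, not of binding.

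The step was compared between genotypes, because the series asked what the loss of *Btbd18* does. In the libraries labelled homozygous round spermatids, round spermatid markers took 0.0603%, 0.0552% and 0.0561% of counts and elongating spermatid markers 0.0582%, 0.0330% and 0.0710%, against 0.276% to 0.430% and 0.510% to 0.822% in the heterozygous round spermatids. In heterozygous spermatocytes the shares were 0.0578% to 0.0859% and 0.132% to 0.169%. Spermatocyte markers were at 0.123%, 0.150% and 0.266% in the libraries labelled homozygous round spermatids, against 0.607% to 0.742% in the heterozygous ones. The markers thus go against the label, and the step in knockouts is that between libraries so labelled. Over 7900 features tested in 12 libraries, the step was higher in knockouts than in heterozygotes at 739 (9.35%) and lower at 859 (10.9%), together 20.2%. Of 1562 features higher in heterozygous round spermatids and tested here, 261 had a lower and 3 a higher step in knockouts, and in the knockouts themselves 152 (9.73%) passed as higher and 178 (11.4%) as lower, where 12.5% and 21% of all features did. Of 1463 lower features, 213 had a higher and 138 a lower step, and in the knockouts 636 (43.5%) passed as lower and 48 (3.28%) as higher, where 33.5% of all features passed in either direction. The homozygous round spermatid replicate 2 held 193711 counts on 4246 features, and without it 1747 features had a higher and 1639 a lower step.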

How the data were processed

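Raw counts per gene and piRNA locus were deposited by the authors as 1 table per cell type and 1 for testes. Build mm10 is named in the submitters' processing notes, beside TopHat2 2.1, cutadapt 1.8.1, Cufflinks and the Subread package, 1.4.6-p3, with its counter featureCounts. The strand setting of the counting is not given in the sources used here, and 2 small RNA tables were not used.

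The 6 libraries were joined by feature name. Features were kept with edgeR's filterByExpr, scaled by TMM and tested with edgeR 4.0.16 (quasi-likelihood, R 4.3.3), with p-values adjusted over all tested features by Benjamini-Hochberg and a threshold of 0.05. The knockout and testis comparisons used the same steps over 12 and 20 libraries. Alternatives were scaling by size factors (RLE), upper quartile or total counts, other filters, DESeq2 1.42.0, limma 3.58.1 with voom weights, a robust spread, a replicate block, all 12 purified-cell libraries, and leaving out each library. Refits on features with and without an opposite-strand gene were added after the data were seen.

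Simulated data for the 6 libraries held 5673 features, few of them changed, whereas 49.7% passed in the data. In the simulation 10.6% of 2-fold and 73.6% of 4-fold changes were found, with 7 false among 80 calls. Replicates differed by more than sampling noise in every pair. The same replicate numbers do not mark a shared source in the labels. The ± values of fold changes are SEs derived from the test and include the spread among libraries. The floor of 3 counts covers counting error only.

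Strand, promoter and gene positions come from RefSeq tables of build GRCm38.p6. The features named are the 15 with the smallest p in each direction, 6 members with the smallest p and the one with the largest p in each list, 6 intergenic and 4 genic loci in each direction, the 10 with most CPM in each cell type, and 5 in each direction of the genotype difference. Some features that this rule names are not reported here. The comparison, the lists and the rule were chosen with earlier results of these data known. Opposite-strand genes, *Prm1*, *Tnp2* and the motifs were named after values were seen.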

Additional observations from a re-analysis of the deposited data

Results flagged for a closer look

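The step between cell types differed between genotypes by a direct test of the difference (edgeR's quasi-likelihood test over 12 libraries, Benjamini-Hochberg adjustment) at 739 features with a higher and 859 with a lower step in knockouts. The features with the smallest p are given as log2 values, the difference being the step in knockouts minus that in heterozygotes, with 3 libraries in each group. As reported above, markers go against the label of the homozygous round spermatid libraries.

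*Rad9a*, a DNA damage checkpoint gene (strand not in the tables), had 1067, 393 and 522 counts in the libraries labelled homozygous round spermatids and 28, 9 and 10 in homozygous spermatocytes, against 2, 4 and 2 in heterozygous round spermatids and 55, 13 and 39 in heterozygous spermatocytes. Its difference was 8.64 ± 0.97 (SE). *Ncl*, the nucleolar protein nucleolin, had 568, 205 and 287 counts in the libraries labelled homozygous round spermatids against 5, 4 and 2 in heterozygous ones, and a difference of 7.40. The difference was 7.89 for *Dazl*, 6.38 for *Gm15441* and 6.18 for *Mettl5*, with *Ssb* on its opposite strand. All 5 were lower in round spermatids than in spermatocytes in heterozygotes, with steps between -3.09 and -5.49.

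In the other direction, *Fam71a* had 0, 0 and 0 counts in the libraries labelled homozygous round spermatids and 64, 31 and 39 in homozygous spermatocytes, against 122, 128 and 69 in heterozygous round spermatids and 43, 13 and 30 in heterozygous spermatocytes. Its difference was -10.51, a fitted value against a group at 0 and no bound. The locus 14-qA3-3095 also had 0 counts in the 3 libraries labelled homozygous round spermatids, against 98, 102 and 119 in the heterozygous ones (difference -10.31). *Alpi* and *Alppl2*, alkaline phosphatase genes that share *Gm29371* on the opposite strand and can share reads, had differences of -9.57 and -7.73, and *BC030499* had -5.30.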

How the results depend on the processing

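In the heterozygous comparison no feature called in one direction was called in the other under any alternative. This was not counted for the genotype and testis comparisons. Of the values of single features under all alternatives, 2599 of 2751 kept direction and side of the threshold, 119 lost and 13 gained the call, and 20 changed sign. Those that changed sign belonged to features that did not pass. Under total counts *Hspa2* had 0.088, *Adam2* 0.25, *Gm166* 0.10, *Necab1* 0.17 and the locus 14-qA3-3095 0.056. Under RLE and DESeq2 *Stag3* had -0.027 in both and *Cd72* -0.013 in both, and under limma *Adam2* had 0.14 and *Cd72* -0.065. With at least 10 counts *Stag3* had -0.0056, and with 12 libraries *Adam2* had 0.019. Without 1 library *Hspa2* ranged from -0.56 to 0.014, *Adam2* from -0.26 to 0.084, *Stag3* from -0.38 to 0.41 and *Cd72* from -0.40 to 0.22.

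The fit on all 12 libraries, whose spread is larger, was also filtered and scaled over 12 and tested 7900 features. It gave 361 higher and 777 lower features, 1 higher and 29 lower intergenic loci, and 1 higher genic locus. On X 13 features were higher and 5 lower, and 42 named features lost their call. Features with no opposite-strand gene fitted alone gave 578 and 677, with 10 and 0 on X, and those with one gave 569 and 525, with 7 and 0 on X. Both splits thus turned against those in the fit of all features. Total counts gave 20 higher intergenic loci, and with no filter X had 67 higher and 9 lower features. Of the called features in testes, under total counts 203 higher ones fell, 143 lower ones rose and 893 lower ones fell. The genotype difference had 1569 higher features under total counts, and 1387 lower ones under RLE and 1901 under DESeq2. The causes were not tested.

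Without 1 library at a time the calls ranged from 1035 to 1937 higher and 1200 to 1696 lower features, 6 to 17 and 41 to 46 intergenic loci, 1 to 8 and 14 to 19 genic loci, 22 to 39 and 1 to 5 X features, and 259 to 1747 and 333 to 1639 genotype differences. Of called features in testes, 1232 to 1252 higher ones rose, 66 to 96 fell, 221 to 296 lower ones rose and 401 to 588 fell. *Fam71a* lost its call in heterozygotes without round spermatid replicate 2 or spermatocyte replicate 2.

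With the replicate number as a block, 1403 features were higher and 1283 lower, and the genotype difference had 497 and 678. Deviations of libraries with the same number had correlations of -0.10, 0.01 and 0.02. Across different cell types these cannot tell whether such libraries share a source, and the labels do not say. Most 2-fold changes were not found in the simulated data, where few features changed, and that rate may not hold for these libraries.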
